A study of Mus musculus with 4 samples.

Results

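The 4 mouse genes described here belong to the DNA methyltransferase family, whose active enzymes write 5-methylcytosine (5mC): Dnmt1, Dnmt3a, Dnmt3b and Dnmt3l. Each gene was taken as a fixed span of genome build mm9, and sequencing reads were counted in the span and in the 5 kb tiles whose centre lies in it. The 4 spans held 45 such tiles, of 527794 tiles over chromosomes 1 to 19 and X. The spans were Dnmt1 at chr9:20711000-20765000 (54 kb), Dnmt3a at chr12:3806000-3915000 (109 kb), Dnmt3b at chr2:153475000-153514000 (39 kb) and Dnmt3l at chr10:77504000-77527000 (23 kb). They were drawn up as the genes with 5 kb added on each side. No mm9 annotation was used here, so exons, introns and gene ends were not placed within them. The lengths of the genes on build GRCm38 leave little or no room for added flanks: 52.7 kb for Dnmt1, 113 kb for Dnmt3a, 38.3 kb for Dnmt3b and 21.3 kb for Dnmt3l in the RefSeq table. The Dnmt3a span is thus shorter than the gene on that build, and the other spans exceed theirs by 0.680 to 1.66 kb, so that no part of a span was read as flank.

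The libraries compare neural progenitor cells (NPC) with the mouse embryonic stem cells (ESC) from which they were made. Both were of the 46C line, of strain 129/Ola, without siRNA or shRNA. NPC were collected on day 9 of monolayer differentiation in N2B27 medium as rosette-like cells that expressed the Sox1-GFP reporter, and the ESC were grown with 10% serum and leukemia inhibitory factor. Genomic DNA was sequenced before (input) and after precipitation with an antibody to 5-hydroxymethylcytosine (5hmC), with 1 library per group, and the barcoded DNA of both cell types shared a tube during precipitation. No RNA was measured, so the cell types could not be checked against marker genes.

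DNMT1 is the maintenance enzyme: after replication it copies methylation from the old strand to the new. DNMT3A and DNMT3B place new methyl groups on unmethylated CpG sites, and DNMT3L has no catalytic activity of its own but binds and stimulates both. TET enzymes oxidise 5mC to 5hmC, so 5hmC marks methylated DNA that TET has acted on. In many cell types 5hmC is found along the bodies of transcribed genes and is scarce at CpG-dense promoters.

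5hmC arises almost entirely at CpG dinucleotides in most cells, and the promoters of the 4 genes differ widely in how many they hold. The most CpG-rich annotated promoter of each gene is shown for this reason. The sequences run 5′ to 3′ on the gene's strand, from 250 bases before the transcript start to 50 after it, and come from RefSeq on build GRCm38.p6. Capitals mark the motif CG, which reads the same on both strands. These positions are of another build than the reads and were not placed on them.
Dnmt1, chr9:20952574-20952873, minus strand: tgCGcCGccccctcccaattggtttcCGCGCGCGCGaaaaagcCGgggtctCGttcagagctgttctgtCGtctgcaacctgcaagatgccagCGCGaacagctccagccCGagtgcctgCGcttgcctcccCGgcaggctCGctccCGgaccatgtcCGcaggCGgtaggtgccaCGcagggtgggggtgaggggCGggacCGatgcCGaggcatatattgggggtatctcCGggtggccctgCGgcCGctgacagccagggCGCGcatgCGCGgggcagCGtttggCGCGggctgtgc
Dnmt3a, chr12:3806910-3807209, plus strand: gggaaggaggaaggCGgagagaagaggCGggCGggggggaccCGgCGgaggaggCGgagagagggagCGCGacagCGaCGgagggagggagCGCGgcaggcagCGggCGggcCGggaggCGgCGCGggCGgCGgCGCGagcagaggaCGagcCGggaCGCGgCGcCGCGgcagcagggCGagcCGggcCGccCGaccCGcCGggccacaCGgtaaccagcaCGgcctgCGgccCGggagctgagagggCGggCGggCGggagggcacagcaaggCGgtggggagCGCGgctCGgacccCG
Dnmt3b, chr2:153649199-153649498, plus strand: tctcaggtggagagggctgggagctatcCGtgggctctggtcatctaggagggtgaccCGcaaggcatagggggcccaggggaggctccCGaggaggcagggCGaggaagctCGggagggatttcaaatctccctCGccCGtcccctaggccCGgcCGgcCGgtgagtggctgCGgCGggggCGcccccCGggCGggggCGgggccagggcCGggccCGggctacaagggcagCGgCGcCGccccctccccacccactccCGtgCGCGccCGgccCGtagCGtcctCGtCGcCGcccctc
Dnmt3l, chr10:78042037-78042336, plus strand: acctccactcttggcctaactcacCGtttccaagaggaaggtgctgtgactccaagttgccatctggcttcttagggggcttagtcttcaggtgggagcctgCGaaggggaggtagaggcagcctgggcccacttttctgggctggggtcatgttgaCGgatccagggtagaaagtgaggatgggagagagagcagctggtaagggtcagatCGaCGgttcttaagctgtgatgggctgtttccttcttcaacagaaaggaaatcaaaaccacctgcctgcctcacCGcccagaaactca

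The Dnmt3a promoter held 47 CG dinucleotides in 300 bases, and 1.44% of the 32851 mouse promoters in the table held as many. The Dnmt1 promoter held 33 (8.56% of promoters held as many) and the Dnmt3b promoter 30 (11.7%). The Dnmt3l promoter held 6, close to the median of 7, and 56.4% of promoters held as many. Of all promoters 94.6% held at least 1. The other annotated starts of Dnmt1 had 12 and 2, those of Dnmt3a 46 and 18, and those of Dnmt3l 4 and 3, while Dnmt3b had a single annotated start in the table.

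The first comparison asked how much 5hmC each locus carried in NPC relative to ESC. All 4 loci held less in NPC, and Dnmt1 differed most. Levels are given as 5hmC reads divided by input reads. Over the whole genome the level was 0.265 in NPC and 1.41 in ESC, an NPC/ESC ratio of 0.188 (95% interval 0.187 to 0.188). Only ratios of such levels can be read, between cell types or between regions, because a level itself depends on the sequencing depth of its libraries. The NPC/ESC ratio is free of depth only if the mixed barcodes were also amplified and sequenced together, which was not checked. After removal of stacked reads the libraries held 1742680 NPC 5hmC, 6588254 NPC input, 7123491 ESC 5hmC and 5059243 ESC input reads. With 1 library per group no p-values were computed. All intervals are 95% intervals of counting error only, since the spread between cultures or precipitations is unknown.

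Across the Dnmt1 span 43 5hmC reads over 247 input reads were found in NPC, against 908 over 206 in ESC. The level was 0.174 5hmC reads per input read in NPC (0.123 to 0.241) and 4.41 in ESC (3.78 to 5.15). This gives an NPC/ESC ratio of 0.0395 (0.0270 to 0.0571), or 25.3-fold less 5hmC in NPC (17.5 to 37.0). That ratio is 0.210 of the genome-wide one (0.144 to 0.304). Relative to the genome-wide level Dnmt1 stood at 0.658 in NPC (0.476 to 0.910) and at 3.13 in ESC (2.69 to 3.64), so that it lay below the average of the genome in NPC and above it in ESC.

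Across the Dnmt3a span, the longest of the 4, 184 5hmC reads over 477 input reads were found in NPC, against 1080 over 402 in ESC. The level was 0.386 in NPC (0.324 to 0.458) and 2.69 in ESC (2.39 to 3.02), with an NPC/ESC ratio of 0.144 (0.116 to 0.177). That ratio is 0.764 of the genome-wide one (0.619 to 0.943). Dnmt3a was above the genome-wide level in both cell types, at 1.46 times in NPC (1.23 to 1.73) and 1.91 times in ESC (1.70 to 2.14). It was the only span with an interval above the genome-wide level in NPC.

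Across the Dnmt3b span 25 5hmC reads over 160 input reads were found in NPC, against 183 over 155 in ESC. The level was 0.156 in NPC (0.0982 to 0.239) and 1.18 in ESC (0.948 to 1.47), the lowest of the 4 spans in each cell type. Relative to the genome-wide level it stood at 0.591 in NPC (0.388 to 0.90) and at 0.839 in ESC (0.677 to 1.04). The NPC/ESC ratio was 0.132 (0.0792 to 0.216), an interval that includes the genome-wide ratio. Input reads of this span, set against library size, were fewer in NPC than in ESC, with a ratio of 0.793 (0.636 to 0.989). With both inputs summed as a shared denominator the 5hmC ratio was 0.105. In the RefSeq table the pseudogene Dnmt3b-ps1, a copy of Dnmt3b, lies near the gene. The treatment of reads that match both is not given in the sources used here, so the Dnmt3b counts are uncertain to that extent.

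Across the Dnmt3l span, the shortest, 33 5hmC reads over 90 input reads were found in NPC, against 249 over 72 in ESC. The level was 0.367 in NPC (0.238 to 0.552) and 3.46 in ESC (2.65 to 4.56). It stood at 1.39 times the genome-wide level in NPC (0.930 to 2.07) and 2.46 times in ESC (1.89 to 3.19). The NPC/ESC ratio was 0.106 (0.0637 to 0.175), which is 0.564 of the genome-wide one (0.339 to 0.933). In the RefSeq table Aire overlaps Dnmt3l, so reads in the shared stretch lie in both genes.

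**Figure D1:**
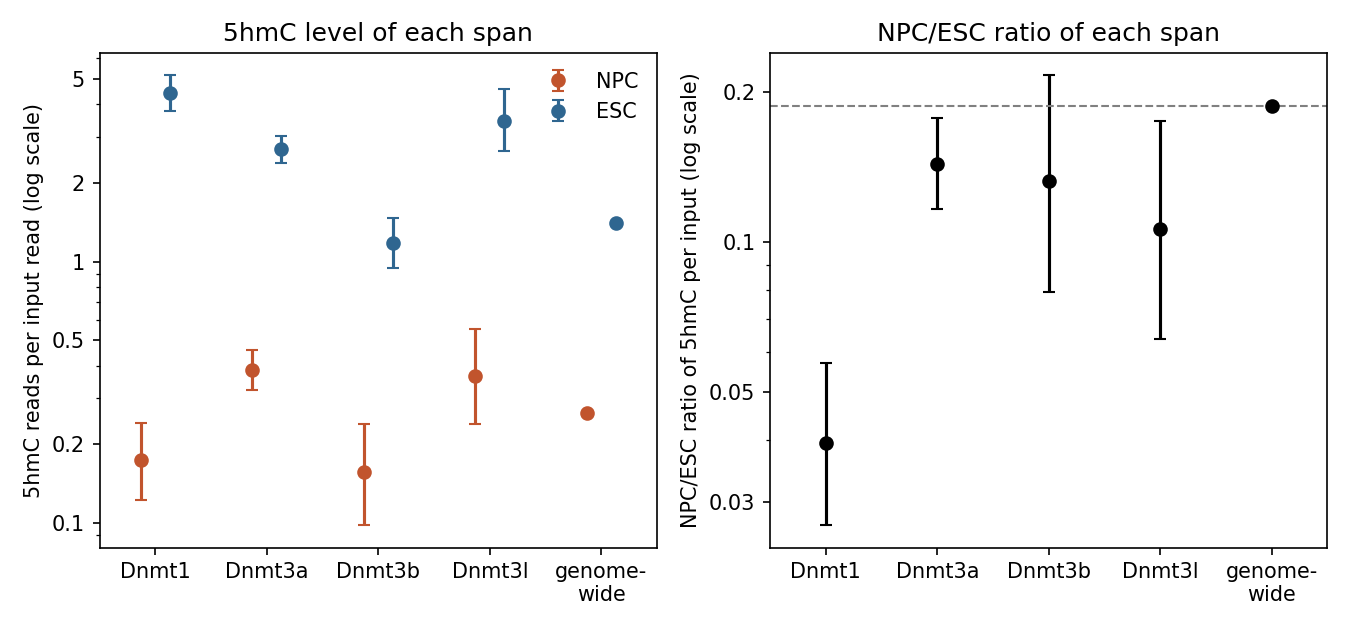
Left, 5hmC reads per input read (log axis) in NPC and ESC for the 4 gene spans and for chromosomes 1 to 19 and X. Right, the NPC/ESC ratio of these levels (log axis), with the genome-wide ratio of 0.188 as a dashed line. Points are the values of 1 library pair and bars are 95% intervals of counting error. Dnmt1 has the highest level in ESC (4.41) and the lowest ratio (0.0395).

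The 6 pairs of loci were then compared with each other, without adjustment for their number. For the NPC/ESC ratio the interval excluded 1 in 3 of 6 pairs, which were those with Dnmt1. The Dnmt1 ratio was 0.275 of the Dnmt3a ratio (0.182 to 0.415), 0.298 of the Dnmt3b ratio (0.165 to 0.540) and 0.373 of the Dnmt3l ratio (0.205 to 0.676). Dnmt3a over Dnmt3b gave 1.08 (0.648 to 1.82), Dnmt3a over Dnmt3l 1.35 (0.806 to 2.28) and Dnmt3b over Dnmt3l 1.25 (0.638 to 2.44). These intervals are wide, and differences within the bounds given were not excluded at this depth.

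The order of levels differed between the cell types. In NPC, Dnmt3a and Dnmt3l were higher than Dnmt1 and Dnmt3b, and 4 of 6 pairs had intervals that excluded 1. The NPC level of Dnmt1 was 0.451 of that of Dnmt3a (0.305 to 0.657), and it did not differ from that of Dnmt3b beyond counting error (1.11, 0.637 to 1.98). In ESC, 4 of 6 pairs again had intervals that excluded 1. The ESC level of Dnmt1 was 1.64 times that of Dnmt3a (1.35 to 1.99) and 3.73 times that of Dnmt3b (2.85 to 4.89), while Dnmt1 over Dnmt3l gave 1.27 (0.927 to 1.74). The ESC level of Dnmt3a was 2.28 times that of Dnmt3b (1.77 to 2.92). Dnmt3a over Dnmt3l gave 0.777 in ESC (0.575 to 1.04), so that neither neighbour of Dnmt3l in the ESC order differed from it beyond counting error.

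To place the spans within the genome, non-overlapping windows of 50 kb with at least 50 reads in each input were used (45106 windows). Of these, 264 windows (0.585%) had an ESC level as high as Dnmt1, and 26 (0.0576%) had an NPC/ESC ratio as low. The windows' NPC/ESC ratio falls where ESC are rich in 5hmC, so each span was also set beside the windows in the same decile by ESC level. Dnmt1, Dnmt3a and Dnmt3l fell in the richest decile (4512 windows), where the median NPC/ESC ratio was 0.107 and the 5th to 95th percentile ran from 0.0586 to 0.195. Dnmt1 lay below that range, with 0.399% of these windows as low. The ESC levels of this decile ran from 2.57 to 8.15, and its summed windows had 3.28, against 4.41 in Dnmt1. Most of its windows were thus poorer in ESC 5hmC than Dnmt1, and a closer match was not tested. Dnmt3l, at 0.106, lay at the middle, with 49.1% as low. Dnmt3a lay in the upper part, with 79.7% as low. Dnmt3b fell in the 7th decile from the poorest, where the median ratio was 0.190, and 16.5% of those windows had a ratio as low. Spans shorter than a window, such as Dnmt3l, vary more by counting alone and longer ones less, so these shares are descriptions.

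The NPC level of the richest decile of windows was 0.368 5hmC reads per input read (0.366 to 0.369), and that of the poorest decile 0.177 (0.176 to 0.178). Dnmt1, with 0.174, and Dnmt3b, with 0.156, had NPC levels near that of the windows poorest in ESC 5hmC. Dnmt3a and Dnmt3l had NPC levels near that of the richest windows. The share of precipitated reads that is unspecific was not measured, and no ratio here was corrected for it.

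**Figure D2:**
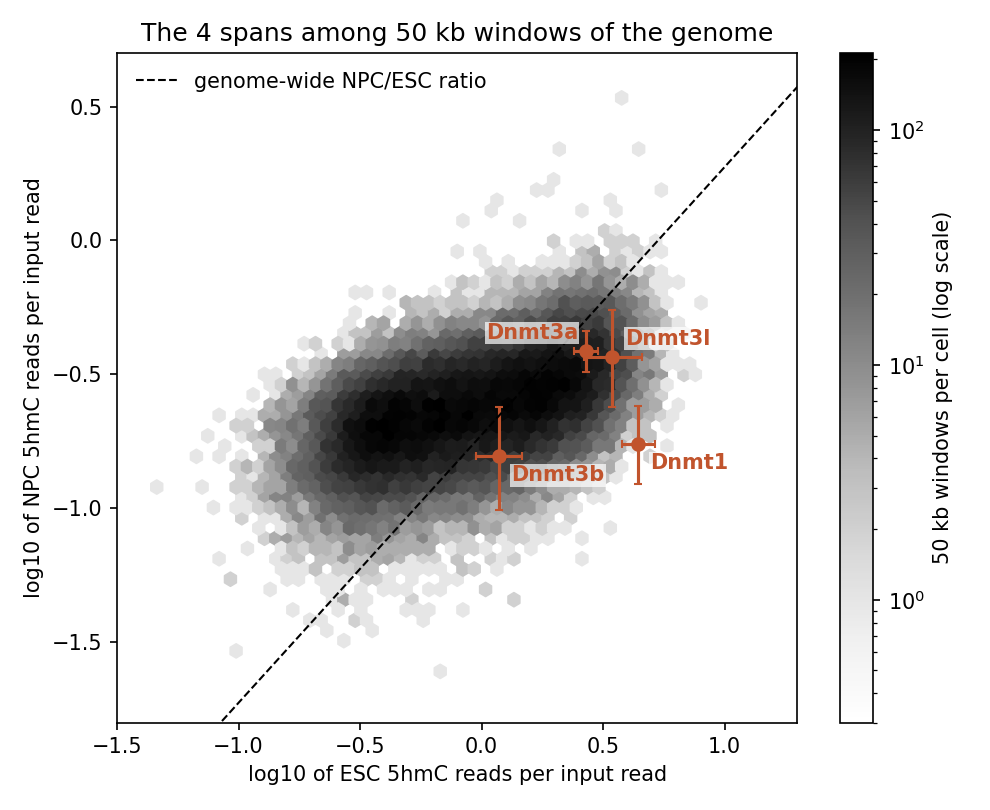
NPC (vertical) and ESC (horizontal) 5hmC reads per input read, both as log10, for 45106 windows of 50 kb (grey, darker where more windows fall) and for the 4 spans (points, with 95% intervals of counting error). The 1 window without an NPC 5hmC read is not drawn. The dashed line is the genome-wide NPC/ESC ratio of 0.188. Dnmt1 lies at the lower right edge of the windows, and the other spans lie within them.

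The second comparison asked where in each locus 5hmC lay. Values per tile are distinct reads in 5 kb, and enrichment is 5hmC over own input after scaling each library to its size and adding 0.5 reads, so that 1 is the genome-wide level. A tile was called enriched at 10 or more 5hmC reads and an enrichment of at least 2. All 45 tiles passed the filter on input reads. In NPC 7 of 45 tiles were enriched, against 5.82% of the 476819 tiles kept over the genome. They were 6 of 22 tiles in Dnmt3a, 1 of 4 in Dnmt3l, 0 of 11 in Dnmt1 and 0 of 8 in Dnmt3b. In ESC 24 of 45 tiles were enriched, against 10.6% over the genome. They were 10 of 11 in Dnmt1, 10 of 22 in Dnmt3a, 3 of 4 in Dnmt3l and 1 of 8 in Dnmt3b. The Dnmt3b share is near that of the genome. The NPC count depends on the rule, since the NPC 5hmC library gave 3.63 reads per tile on average and the ESC one 14.9. It was 2 with a minimum of 20 5hmC reads (1.04% of tiles over the genome), 11 without a minimum (14.0%) and 1 of 22 with tiles of 10 kb (7.12%). The genome shares were not matched for coverage, and a minimum of reads favours well-covered tiles. The median input per tile of a span was 18 to 24 reads in NPC and 16 to 19 in ESC. Over the genome it was 23 for both inputs summed. Adjacent tiles of a locus are not independent of each other.

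The 5hmC of Dnmt1 in ESC was spread along nearly the whole span. Enriched tiles formed a run of 10 adjacent tiles (50 kb, chr9:20705001-20755000), which begins just outside the span. Over the genome 90 of 31984 ESC runs (0.281%) held 10 or more tiles, and the median run was 1 tile. The highest tile, chr9:20710001-20715000, held 3 NPC 5hmC reads over 24 input reads and 156 ESC 5hmC reads over 17. Its enrichment was 0.540 in NPC and 6.35 in ESC, and 0.242% of tiles over the genome were as high in ESC. Its NPC/ESC ratio of 0.0136 (0.00249 to 0.0535) was the lowest of the span by the pseudocounted ratio.

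Of the 11 Dnmt1 tiles, 10 had between 1 and 8 NPC 5hmC reads and between 44 and 156 ESC 5hmC reads. In these 10 tiles the level lay between 0.0588 and 0.296 in NPC and between 3.05 and 9.18 in ESC. The genome-wide levels were 0.265 in NPC and 1.41 in ESC. In bins of 1 kb, 21 of 54 bins had no NPC 5hmC read and 0 of 54 had no ESC 5hmC read, against 61.9% without an NPC and 40.4% without an ESC 5hmC read among the bins of all kept tiles. Bins without an NPC read were not more frequent in Dnmt1 than over the genome, but these shares were not matched for coverage. The median input per Dnmt1 tile was 24 reads in NPC and 19 in ESC, against 23 for both inputs summed over the genome. Per input read, Dnmt1 lay below the genome-wide level in NPC (0.658). The richest bin held 3 reads in NPC and 58 in ESC, where it was chr9:20713001-20714000.

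The exception in Dnmt1 was the tile chr9:20755001-20760000, toward the high-coordinate end of the span. RefSeq places Dnmt1 on the minus strand, so that its transcripts start toward that end. The tile held 7 5hmC reads over 10 input reads in NPC and 14 over 24 in ESC. Its ESC enrichment was 0.420, against 2.13 to 6.35 in the other 10 tiles. Its NPC enrichment was 2.70, which was not called because the tile held fewer than 10 NPC 5hmC reads. Its NPC/ESC ratio was 1.20 (0.310 to 4.46). NPC input was low in this tile, at 0.320 of ESC input after scaling, and with both inputs summed the ratio was 0.384. Without this tile the Dnmt1 ratio was 0.0309, from levels of 0.152 in NPC and 4.91 in ESC.

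**Figure D3:**
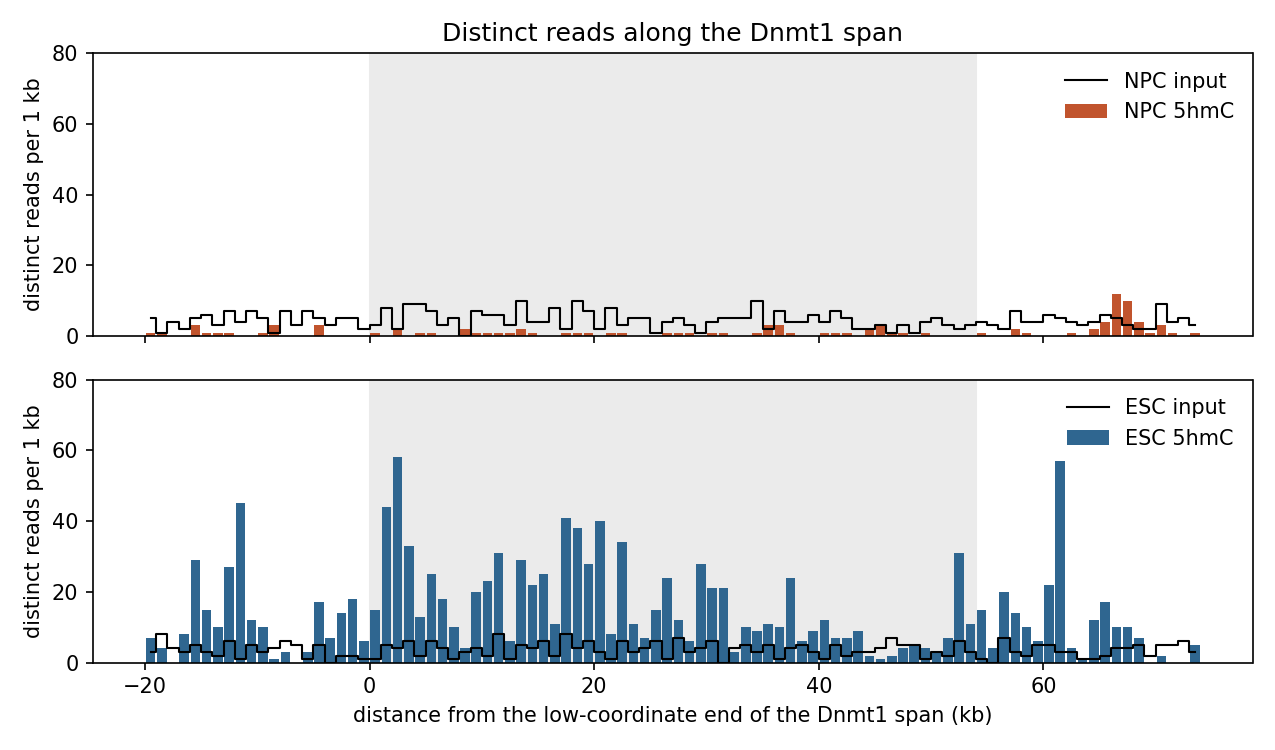
Distinct reads per 1 kb along the Dnmt1 span (grey) and 20 kb on each side, for NPC (top) and ESC (bottom); bars are 5hmC reads and black lines input reads, on the same vertical scale. NPC 5hmC bars reach 3 reads within the span and ESC bars 58, with a dip in ESC between 44 and 49 kb from the low-coordinate end.

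The tiles of Dnmt3a ran from 0.402 to 4.60 in NPC enrichment and from 0.892 to 3.72 in ESC enrichment. The tile highest in NPC, chr12:3870001-3875000, held 22 5hmC reads over 18 input reads in NPC and 95 over 20 in ESC. It was enriched 4.60-fold in NPC and 3.31-fold in ESC, and 1.49% of tiles over the genome were as high in NPC. Its NPC/ESC ratio was 0.257 (0.109 to 0.613), above that of the whole span. The reads were on both strands, with 12 of 22 NPC 5hmC reads on the plus strand.

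The tile of Dnmt3a with the highest NPC/ESC ratio was chr12:3885001-3890000. It held 20 5hmC reads over 24 input reads in NPC and 29 over 23 in ESC, with an NPC enrichment of 3.16, an ESC enrichment of 0.892 and a ratio of 0.661 (0.273 to 1.60). A single bin, chr12:3888001-3889000, held 10 of its NPC reads. The neighbouring tile, chr12:3880001-3885000, held 2 5hmC reads over 23 input reads in NPC and 30 over 12 in ESC. The tile highest in ESC, chr12:3895001-3900000, held 7 over 23 in NPC and 107 over 20 in ESC, with a ratio of 0.0569 (0.0185 to 0.163). The highest NPC level and the highest ESC level of the locus thus lay in different tiles, but with overlapping ESC intervals. The ESC level was 5.35 (3.30 to 9.11) in chr12:3895001-3900000 and 4.75 (2.91 to 8.13) in the tile highest in NPC.

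The other NPC-enriched tiles of Dnmt3a had ratios between 0.137 and 0.366. The tile chr12:3810001-3815000 held 14 5hmC reads over 22 input reads in NPC and 58 over 19 in ESC. The tiles chr12:3825001-3830000 and chr12:3830001-3835000 were adjacent. The one at the lower coordinates held 14 over 26 in NPC and 55 over 14 in ESC. The other held 13 over 23 in NPC and 34 over 22 in ESC. The tile chr12:3850001-3855000 held 13 over 18 in NPC and 43 over 14 in ESC, with 2 of the 13 NPC reads on the plus strand. The lowest ratio in the locus was that of chr12:3865001-3870000, with 3 over 30 in NPC and 61 over 20 in ESC (0.0328, 0.00601 to 0.126). It adjoins the tile that was highest in NPC.

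In ESC, Dnmt3b lay near or below the genome-wide level along most of the span. Its ESC enrichment lay between 0.297 and 1.03 in 7 of 8 tiles, and its NPC enrichment was at most 1.76. The median over its tiles was 0.819 in ESC, above the 0.552 of all kept tiles. In NPC it was 0.552, below the 0.872 of all kept tiles. The highest NPC value was in chr2:153485001-153490000, with 10 5hmC reads over 22 input reads in NPC and 23 over 17 in ESC. The enriched ESC tile, chr2:153510001-153515000, lies at the high-coordinate end of the span. It held 0 5hmC reads over 13 input reads in NPC and 51 over 14 in ESC. The exact interval of its NPC level reached up to 0.328 reads per input read, and the interval of the NPC/ESC ratio reached up to 0.108. Without this tile the ESC level of the span was 0.9375, against 1.18 with it. The tile chr2:153495001-153500000 also held 0 NPC 5hmC reads, over 16 input reads, and 11 over 27 in ESC, and the interval of its NPC level reached up to 0.259.

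Dnmt3l, with 4 tiles, was enriched in both cell types in chr10:77505001-77510000. That tile held 13 5hmC reads over 20 input reads in NPC and 43 over 6 in ESC, an enrichment of 2.49 in NPC and 4.75 in ESC. The ESC value rests on 6 input reads. On the plus strand were 10 of the 13 NPC reads. The other tiles held 4 to 8 NPC 5hmC reads over 15 to 19 input reads, and 29 to 60 ESC 5hmC reads over 15 to 18 input reads. The highest ratio was 0.331 (0.101 to 1.05), in chr10:77510001-77515000.

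**Figure D4:**
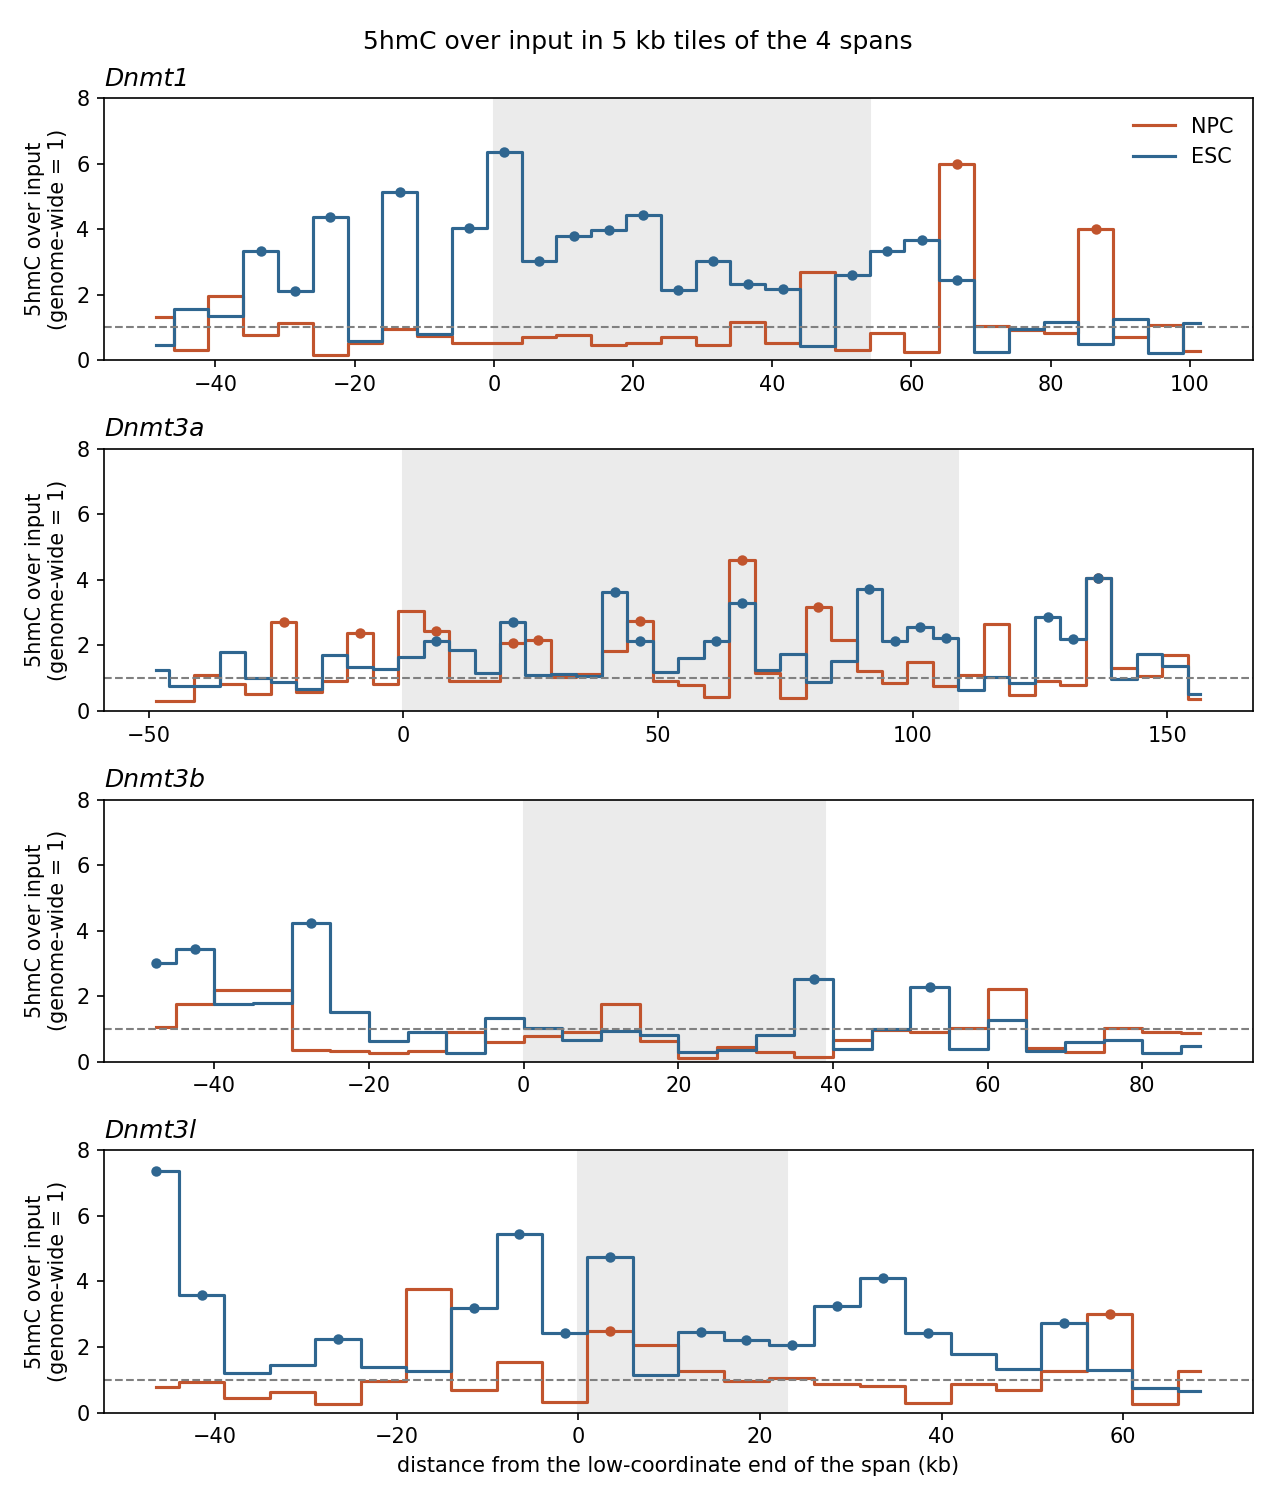
5hmC over own input (genome-wide level set to 1) in 5 kb tiles of the 4 spans (grey) and of 50 kb on each side, by distance from the low-coordinate end of the span. Lines are NPC and ESC, and dots are tiles called enriched. ESC lie above NPC along Dnmt1 except in the tile between 44 and 49 kb, while the lines cross repeatedly along Dnmt3a.

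Tiles were then counted by the size of their difference between NPC and ESC. At least 2-fold lower in NPC were 43 of 45 tiles, against 68.4% over the genome, and 0 of 45 were at least 2-fold higher, against 5.67%. The exceptions were the dip tile of Dnmt1 and chr12:3885001-3890000 in Dnmt3a. Relative to the genome-wide ratio, 19 of 45 tiles lay at least 2-fold below it, against 17.0% over the genome. They were 9 of 11 in Dnmt1, 6 of 22 in Dnmt3a, 3 of 8 in Dnmt3b and 1 of 4 in Dnmt3l. At least 2-fold above it lay 2 of 45 tiles, against 40.5% over the genome. These genome shares were also not matched for coverage. The median pseudocounted ratio was 0.0374 in Dnmt1, 0.148 in Dnmt3a, 0.147 in Dnmt3b and 0.0974 in Dnmt3l, against 0.281 over all kept tiles, many of which are poor in ESC 5hmC. With a pseudocount of 5 reads, added to unscaled counts, the split around the genome-wide ratio changed to 8 tiles below (1.94% over the genome) and 9 above (65.8%).

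The last comparison set each span beside its flanks. Beside Dnmt1 the NPC/ESC ratio lay below the genome-wide one in the 50 kb on the low-coordinate side, and near it in the 50 kb on the other. The span's ratio of 0.0395 (0.0270 to 0.0571) stood beside 0.0632 (0.0413 to 0.0952) in the 50 kb before it, with overlapping intervals. In the 50 kb after the span the ratio was 0.195 (0.140 to 0.271). From 50 to 100 kb the ratio was 0.165 (0.119 to 0.228) before and 0.0861 (0.0580 to 0.127) after. On the high-coordinate side the tile chr9:20775001-20780000 was enriched 5.99-fold in NPC and 2.43-fold in ESC. Of the 79 NPC 5hmC reads in that 50 kb, 32 fell in this tile.

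Beside Dnmt3l, a region had a ratio slightly above that of Dnmt1, with overlapping intervals. The Dnmt3l span had 0.106, against 0.0421 (0.0273 to 0.0639) in the 50 kb before it and 0.104 (0.0710 to 0.152) in the 50 kb after it. Dnmt3a stood at 0.144, with 0.164 (0.113 to 0.238) before and 0.146 (0.101 to 0.211) after, all close to each other. Its NPC level was 0.386, against 0.279 (0.203 to 0.378) before and 0.318 (0.234 to 0.426) after. Dnmt3b stood at 0.132, with 0.0880 (0.0581 to 0.132) before and 0.233 (0.143 to 0.374) after. The ESC level of Dnmt3b was 1.18, against 2.64 (2.14 to 3.28) before and 0.954 (0.741 to 1.23) after.

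**Figure D5:**
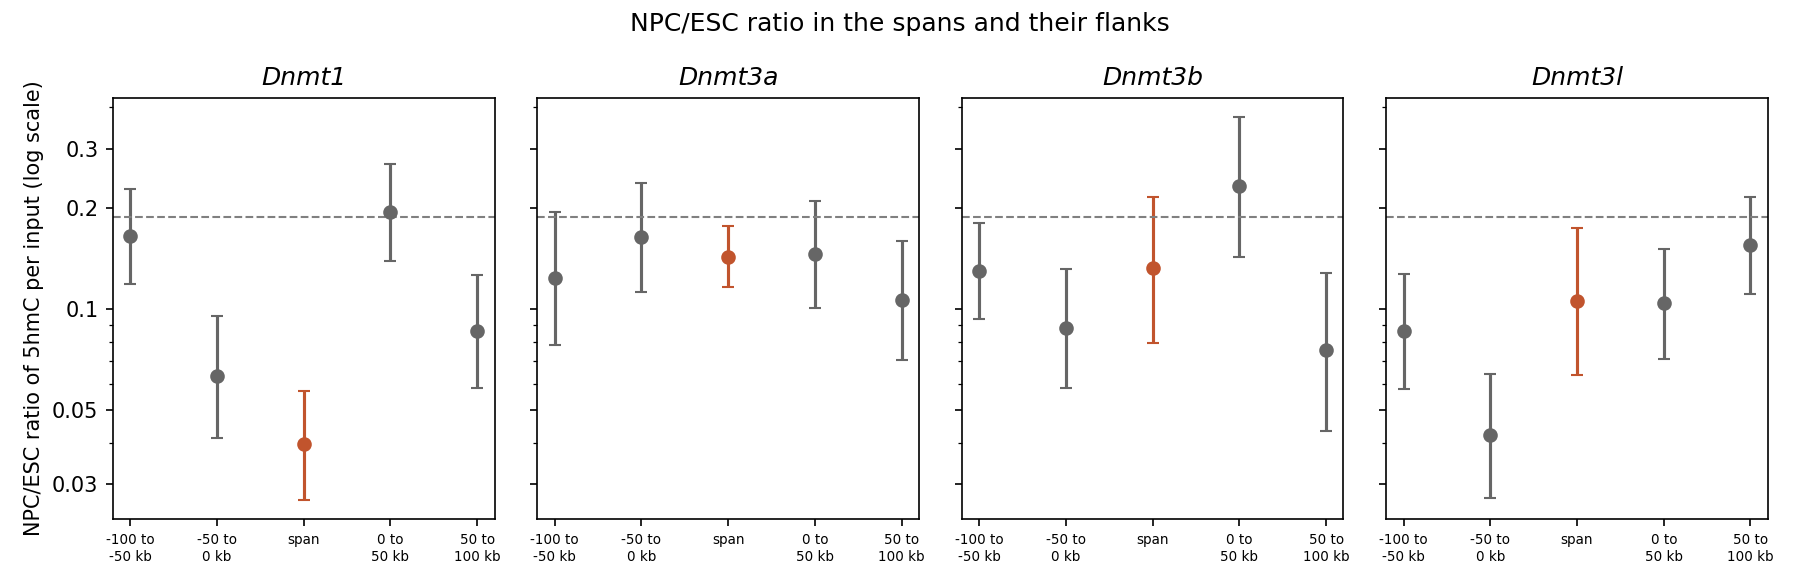
NPC/ESC ratio of 5hmC per input (log axis) in each span (coloured) and in 50 kb pieces on both sides (grey), by position relative to the span. Bars are 95% intervals of counting error, and the dashed line is the genome-wide ratio of 0.188. Dnmt1 has the lowest ratio of its 5 regions, but its interval overlaps that of the 50 kb before it. The piece before Dnmt3l reaches 0.0421.

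The whole chromosomes that carry the genes lay close to the genome-wide ratio. The ratio was 0.186 for chromosome 9 (Dnmt1), 0.195 for chromosome 12 (Dnmt3a), 0.186 for chromosome 2 (Dnmt3b) and 0.185 for chromosome 10 (Dnmt3l). Input coverage gave the background of these comparisons. The scaled NPC/ESC ratio of input reads was 0.921 for Dnmt1 (0.765 to 1.11), 0.911 for Dnmt3a (0.798 to 1.04) and 0.960 for Dnmt3l (0.704 to 1.31), intervals that include 1.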

How the data were processed

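5hmC and input libraries of NPC and ESC were used, 1 of each. DNA was sonicated to under 500 bp and barcoded, per the labels' protocols. Then 4 µg of each cell type was mixed, 10% was taken as input, and products were amplified for 10 to 12 cycles. Bowtie 0.12.7 and build mm9 are named per the submitters' processing notes. The deposited files give, for each position and strand extended to 350 bp, a raw read count, which the authors had not scaled to depth or input as far as the values show. How multiple matches and mapping quality were handled is not given in the sources used here.

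Distinct reads (no more than 1 for a given position and strand, located at its midpoint) on chromosomes 1 to 19 and X were counted. Tiles with fewer than 5 summed input reads, or over 5 times their median of 23, were left out. Ratios of 2 counts have exact (Clopper-Pearson) 95% intervals. NPC/ESC ratios have exact conditional intervals of the odds ratio, or a log-scale normal approximation for counts over 2000 and for ratios of such ratios. PCR reads are not independent molecules. Tile ratios used for calls and medians had 0.5 reads added to each count, and those printed with an interval had none.

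The members, the spans and the rules were chosen with earlier results of these data known. Tiles named were those highest in each cell type and with the lowest and highest NPC/ESC ratio in each span, plus every NPC-enriched tile. Other tiles in the text were chosen after their values were seen. They lie in the Dnmt1 flank, in Dnmt1 where the plus-strand share is given, in Dnmt3a beside its highest-ratio tile and in Dnmt3b where NPC had no 5hmC read. Other genes of the pathway, such as Uhrf1 and the Tet genes, were not analysed here because no mm9 annotation was used. Python 3.11.15, numpy 2.4.6, pandas 2.3.3, scipy 1.17.1 and matplotlib 3.10.9 were used.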

Additional observations from a re-analysis of the deposited data

Results flagged for a closer look

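Dnmt1 drew attention because its 5hmC was below the genome-wide level in NPC and above it in ESC, in both cases by more than counting error. Relative to that level it stood at 0.658 in NPC (0.476 to 0.910) and at 3.13 in ESC (2.69 to 3.64). The difference was not tested against replicates, because there was 1 library per group.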

How the results depend on the processing

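Each locus kept an NPC/ESC ratio below 1 under every alternative run, a weak check because the genome-wide ratio is 0.188. Ranges were 0.0264 to 0.0558 for Dnmt1, 0.127 to 0.159 for Dnmt3a, 0.0938 to 0.197 for Dnmt3b and 0.0818 to 0.129 for Dnmt3l. Relative to the genome-wide ratio, Dnmt3b ranged from 0.499 to 1.05, with 0.704 in the main setting. It reached 1.05 with the span shortened by 5 kb on each side. The highest such value was 0.297 for Dnmt1, 0.845 for Dnmt3a and 0.687 for Dnmt3l. Alternative values of levels and ratios mostly reuse the same reads, so their closeness to the main value is a weak check. Of 100 such values, 97 lay within the interval of the value reported. The exceptions were the Dnmt1 ratio on the plus strand (0.0264) and the Dnmt3b ESC level, which was 0.854 with the span shortened by 5 kb on each side and 0.9375 without its richest ESC tile. The alternative that left out the tile of highest NPC/ESC ratio was chosen after seeing the data. The ratios between pairs of loci stayed within their intervals when all deposited reads were used, the only alternative run for pairs. That check is weak too, because stacked reads were few. Of 38 alternative tile counts, 23 stayed within 1.5 times the count reported. NPC-enriched tiles numbered 11 without a minimum of 5hmC reads and 2 with a minimum of 20. A pseudocount of 5 gave 8 tiles at least 2-fold below the genome-wide ratio and 9 above it. Tiles of 1 kb gave, of 193 kept, 1 enriched in NPC (0.622% over the genome), 65 enriched in ESC (11.0%), 162 at least 2-fold lower in NPC (62.7%), 7 higher (8.84%), 79 below the genome-wide ratio (21.4%) and 41 above it (44.3%). Tiles of 10 kb gave, of 22, 1 enriched in NPC (7.12%), 9 enriched in ESC (9.04%), 22 lower in NPC (72.0%), 8 below the genome-wide ratio (13.5%) and 0 above it (38.0%). With other tile sizes the number of tiles itself changes. The cause of the other changes was not tested. No paired analysis was possible because each group held 1 library. The NPC 5hmC library limits the NPC values, with 25 to 184 5hmC reads per locus.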

Other observations

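The plus strand held 55.3% of the ESC 5hmC reads in Dnmt1 (52.0 to 58.6) and 44.9% in Dnmt3a (41.9 to 47.9), and 54.2% in Dnmt3l (47.8 to 60.5) and 44.3% in Dnmt3b (36.9 to 51.8). The interval excluded an even split in Dnmt1 and Dnmt3a, which hold the most reads, and differences between loci were not tested. In Dnmt1 the share was uneven along the span. The plus strand held 91 of 137 ESC 5hmC reads in chr9:20725001-20730000 and 73 of 156 in the richest tile, chr9:20710001-20715000. The share without the first of these tiles was not computed. The ESC input reads of Dnmt1 and Dnmt3a were 49.5% (42.5 to 56.5) and 47.3% (42.3 to 52.3) on the plus strand. Among NPC 5hmC reads the share was 37.2% in Dnmt1 (23.0 to 53.3) and 41.8% in Dnmt3a (34.6 to 49.3). RefSeq places Dnmt1 on the minus strand and Dnmt3a on the plus strand. Intervals cover counting error only.

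Reads stacked at 1 position made up a small share of these loci. They were 0% of the NPC 5hmC reads of Dnmt1 and 2.78% of its ESC 5hmC reads, and 0.541% in NPC and 2.26% in ESC for Dnmt3a.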
